A study of Homo sapiens with 3 samples.

Results

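CDH4 held more YBX1 regions shared by both replicates within the gene than any other gene, and its peaks fell into compact groups spread along its introns. Every row of either deposited peak list that names CDH4 was taken, alone or with other genes: 102 of 22874 peaks in replicate 1 (0.446%) and 89 of 17285 in replicate 2 (0.515%), 191 of 40159 in all. CDH4 was selected on the number of shared peak regions it holds in these same lists, so the counts of its peaks and shared regions are descriptions and carry no test. CDH4 was the only gene named for 96 of the replicate 1 peaks and 85 of the replicate 2 peaks; the other 6 and 4, at either end of the cluster, were also named for LOC100506470 or for MIR1257 and TAF4.

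The data are ChIP-seq libraries of YBX1 from HEL, a human erythroleukaemia line that carries a mutated JAK2 gene, grown without drug. The groups are YBX1 ChIP (2 libraries, replicates 1 and 2, made with 1 anti-YBX1 antibody) and input (1 library of sheared chromatin with no immunoprecipitation), so both peak lists were called against the same input. The header of the replicate 2 list names an alignment numbered 3, while that of replicate 1 names number 1; the samples are called here by their labels. Nothing in the labels ties the replicates to separate cultures, and their spread may be technical. The libraries held 10275569 and 10190347 tags (aligned reads) in replicates 1 and 2, against 77308330 in the input, and 10010819, 9926271 and 74780414 after the peak caller removed duplicates. A peak is a stretch where tags exceeded the expected background at a p-value cutoff of 1e-05, and its fold enrichment is the height of its summit over the local background; the authors deposited the fold, and a score that stands for the p-value, with each peak.

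YBX1, also called YB-1, belongs to the cold-shock proteins and binds DNA as well as RNA; it is known for roles in transcription, splicing and translation. CDH4 encodes R-cadherin, a classical type I cadherin first described in the retina, which holds neighbouring cells together through calcium-dependent contacts. Classical cadherins bind catenins inside the cell, and the catenins link them to the actin cytoskeleton.

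None of the 191 peaks lay in a promoter or an exon. In replicate 1, 93 peaks were in introns and 9 were intergenic, and in replicate 2 the numbers were 83 and 6. Introns held 91.2% and 93.3% of CDH4 peaks, against 41.3% and 42.7% of the other peaks of chromosome 20 and 36.9% and 36.4% of all peaks. All CDH4 peaks lay on chromosome 20 (hg19) between 59748100 and 60532650, a span of 785 kb, and the intronic ones between 59912292 and 60492371, a span of 580 kb. CDH4 supplied 15.8% of the 647 peaks of chromosome 20 in replicate 1 and 18.7% of the 475 in replicate 2.

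Peaks of either list that lay within 500 bp of each other were joined into sites, which gave 30 CDH4 sites. The grouping was clear-cut: the widest gap inside a site was 299 bp and the narrowest gap between sites was 1282 bp. Of the 29 gaps between sites, 8 were under 10 kb, and the median gap was 25716 bp, with the widest at 118985 bp. Inside sites, neighbouring summits were a median of 175 bp apart in replicate 1 (range 56 to 593 bp, 73 distances) and 141.5 bp apart in replicate 2 (range 60 to 580 bp, 64 distances). CDH4 peaks were thus crowded at 2 scales, as short runs of adjacent peaks and as such runs repeated along the introns.

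Sites held more peaks at CDH4 than over the lists as a whole. Another peak of the same list shared the site for 94.1% of CDH4 peaks in replicate 1 and 95.5% in replicate 2, against 68.8% and 64.2% of all peaks. A CDH4 site present in both lists held a median of 7.5 peaks over both lists and spanned a median of 674 bp (58 to 1580 bp), against 3 peaks and 279.5 bp over all sites present in both lists. The most peaks at a CDH4 site were 8 in replicate 1 and 7 in replicate 2. Crowded sites were not particular to CDH4 among genes with at least 10 shared regions in the gene. CDH4 had 2.24 such regions per site, with genes on either side of it. CSMD1 had 1.27 and SORCS2 1.73, while PTPRN2 had 2.5 and ZFPM1 had 13.

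**Figure D1:**
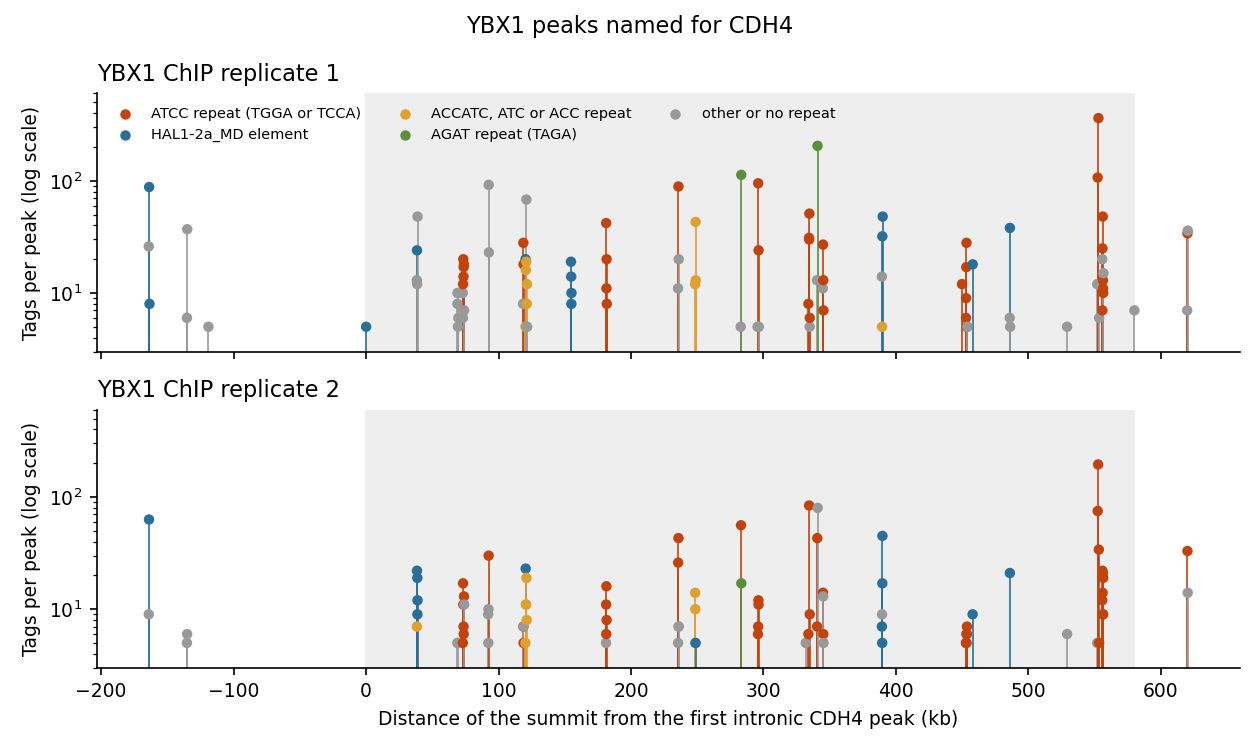
Each point is 1 CDH4 peak, placed by the distance of its summit from the first intronic CDH4 peak (kb) and by its tags (log scale), with replicate 1 above replicate 2, the colour giving the annotated repeat and the grey band the stretch of intronic peaks. Of the 30 groups of peaks, 24 recur in both replicates, and the tallest group, in the right-hand part of the band, reaches 362 tags in replicate 1 and 195 in replicate 2.

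The strongest site, labelled mainly TGGA, lay at 60464171 to 60465750 in intron 6 of 14 of 1 CDH4 transcript. Its peaks summed to 487 tags in replicate 1 and 314 in replicate 2, which was 18.1% and 20.3% of all CDH4 tags. Its highest peak had 362 tags at a fold enrichment of 146 in replicate 1 and 195 tags at 88.0 in replicate 2. Replicate 1 was the higher library for both its summed and its highest tags. In the same intron, 2154 bp further on, a second TGGA site (60467905 to 60468997) held 8 peaks with 149 tags in replicate 1 and 7 peaks with 106 tags in replicate 2. This second site was a row of small peaks: no peak in it passed 48 tags in replicate 1 or 22 in replicate 2. The leading region inside it, at 60468278 to 60468534, had 48 tags in replicate 1 and 35 in replicate 2.

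Several strong sites lay in the middle of the gene, in stretches labelled as intron 1 of 14 of the same or another transcript. The site at 60252619 to 60253440 was second in tags in both replicates, with 218 in replicate 1 and 130 in replicate 2, and top fold enrichments of 124 and 74.0. Its peak labels differed between the lists. In replicate 1, 205 tags were in a peak labelled TAGA. In replicate 2, 50 were in peaks labelled TGGA and 80 in a peak with no repeat label. Each peak carries 1 label, and single tags were not placed on repeats. Only 5343 bp before it, the TGGA site at 60246139 to 60247275 had 131 tags in replicate 1 and 99 in replicate 2. Most of that signal, 123 tags in replicate 1 and 93 in replicate 2, was in 1 region (60246506 to 60247275). These neighbouring sites thus kept their order in both replicates. A TGGA site at 60147726 to 60148413 had fewer tags, 120 in replicate 1 and 88 in replicate 2, but high fold enrichment, at 133 and 108. Its leading region, 60147845 to 60148201, carried 89 tags in replicate 1 and 69 in replicate 2. The site at 60195072 to 60195681 had 118 tags in replicate 1 and 73 in replicate 2, of which the region from 60195165 held 113 and 73. In that region the 113 replicate 1 tags were in a peak labelled TAGA. The replicate 2 tags were in peaks labelled TGGA (56) and TAGA (17). In intron 2, the region at 60004435 to 60004909 had 92 tags in 1 replicate 1 peak, labelled TGGG. Replicate 2 had 54 tags there in 4 peaks, with 30 in a peak labelled TGGA and 10 in a peak labelled TGGG. Overlapping peaks of the lists thus carried different labels at these places.

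Not every strong site was labelled as a tetranucleotide repeat. The first CDH4 site, intergenic at 59748100 to 59748814, lay mainly on HAL1-2a_MD, which the files annotate as a LINE element of the L1 class, and had 122 tags in replicate 1 and 72 in replicate 2. Its second region, 59748290 to 59748731, accounted for 88 and 63 of them. The element recurred inside the gene. In intron 2 of 15, the region from 59950649 to 59951193 had 84 tags in replicate 1 and 62 in replicate 2. Over its site, from 59950534, peaks labelled HAL1-2a_MD held 24 of 97 tags in replicate 1 and 62 of 69 in replicate 2. The other 73 replicate 1 tags were in peaks with no repeat label. Another HAL1-2a_MD site, at 60301630 to 60302457, had 99 replicate 1 tags and 83 replicate 2 tags, the nearest to equal among the sites with over 10 tags in each list. Its strongest region, 60302071 to 60302457, had 48 replicate 1 tags and 45 replicate 2 tags.

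The cluster ended on a site with TGGA and L1PB3 labels beyond the last intronic peak, at 60532138 to 60532650, where replicate 1 had 77 tags and replicate 2 had 47. One of its replicate 2 peaks had the highest fold enrichment of any CDH4 peak in that list, 138, beside 113 for its replicate 1 partner. The last shared region, 60532441 to 60532650, lay on an L1PB3 element, with 36 replicate 1 tags and 14 replicate 2 tags. The first shared region, 59748100 to 59748288, lay on L1MB3 and had 26 tags in replicate 1 and 9 in replicate 2. Both ends of the cluster therefore had fewer tags in replicate 2 peaks than in replicate 1 peaks. The closest pair of neighbouring shared regions touched, with 0 bp between 60093764 and 60093765 in a TCCA repeat, and the widest pair stood 173106 bp apart, between the intergenic regions before the gene and the first intron 2 site.

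A few sites carried much of the signal. The 5 sites with most tags in each replicate held 42.3% of CDH4 tags in replicate 1 and 47.7% in replicate 2. Peaks of over 50 tags numbered 10 (9.80%) in replicate 1 and 6 (6.74%) in replicate 2, against 4.49% and 2.99% of all peaks. At the other end, peaks at the lowest count, 5 tags, numbered 15 (14.7%) and 18 (20.2%), against 21.7% and 22.1% of all peaks.

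CDH4 peaks were wider and held more tags than the median peak, but their fold enrichment was lower. Their median width was 95.5 bp in replicate 1 (38 to 1006 bp) and 80 bp in replicate 2 (35 to 743 bp), against 70 and 69 bp over all peaks. They held a median of 13 tags in replicate 1 (5 to 362) and 9 in replicate 2 (5 to 195), against 9 and 8 over all peaks. Their median fold enrichment was 40.8 in replicate 1 (17.3 to 146) and 36.9 in replicate 2 (14.9 to 138), against 53.9 and 54.4 over all peaks. The caller's score, which grows with −log10 of the p-value, had a median of 138 in replicate 1 and 101 in replicate 2, against 108 and 105 over all peaks. In replicate 2, then, CDH4 peaks were slightly larger in tags than the list yet slightly lower in score. Both lists were called with a fragment length (d) of 20 bp, shorter than the 36 bp tag, so the widths and summit distances carry that setting.

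CDH4 peaks held 2689 tags over 15267 bp in replicate 1, or 17.6 tags per 100 bp, and 1546 tags over 10228 bp in replicate 2, or 15.1 per 100 bp. Over all peaks the densities were 17.1 and 16.0 tags per 100 bp. CDH4 thus held 0.697% of the tags in peaks of replicate 1 and 0.617% of those in replicate 2.

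Tandem repeats of 4 bases with the unit ATCC, written TGGA on one strand and TCCA on the other, were the commonest annotation. They covered 38 peaks (37.3%, Wilson 95% interval 28.5 to 46.9) in replicate 1 and 44 (49.4%, 39.3 to 59.6) in replicate 2. ATCC units held 32.7% and 32.4% of the other peaks of chromosome 20, and 20% and 21.6% of all peaks. The replicate 1 interval includes the share on the rest of the chromosome, and the replicate 2 interval lies above it. The intervals cover counting error only, and neighbouring peaks of 1 repeat run are not independent.

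TGGA was annotated at 10 CDH4 sites and TCCA at 5, with 0 sites holding both. How often TGGA and TCCA share a site over the lists was not computed, so the 0 has no background share beside it. Along the gene the orientations alternated in blocks: TCCA at 59985201, TGGA at 60004435 and 60030777, TCCA at 60093396, TGGA at 60147726 and 60195072, and TCCA at 60207787. TGGA followed at 60246139, 60252619 and 60257029, then TCCA at 60362120 and 60365092, and TGGA at 60464171, 60467905 and 60532138. Sites where TGGA was the repeat label with most tags numbered 7 and held 1076 tags in replicate 1 and 711 in replicate 2, against 401 and 181 tags at the 5 sites where TCCA was. The TCCA site at 60207787 to 60208785 was the most unequal of those with over 100 tags in replicate 1, with 129 tags in replicate 1 and 36 in replicate 2.

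The unit AGAT (TAGA or TCTA), the most frequent tandem unit of the lists, labelled few CDH4 peaks. It was the label of 2 peaks (1.96%, 0.539 to 6.87) in replicate 1 and 1 (1.12%, 0.199 to 6.09) in replicate 2. The shares were 14.9% and 19.2% of the other peaks of chromosome 20, and 23.5% and 28.5% of all peaks. These intervals end below the shares on the rest of the chromosome. The few AGAT peaks were large in replicate 1. The 2 sites where AGAT was the repeat label with most tags held 336 of 2689 CDH4 tags in replicate 1. In replicate 2 they held 203 of 1546, of which 17 were in a peak labelled TAGA. Tandem repeats of any unit covered 51% of CDH4 peaks in replicate 1 and 62.9% in replicate 2, against 51.2% and 58.9% of all peaks, which lie within the Wilson intervals of the CDH4 shares (41.4 to 60.5 and 52.5 to 72.2).

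HAL1-2a_MD was the second repeat label, at 13 peaks in each replicate (12.7%, 7.60 to 20.6, in replicate 1 and 14.6%, 8.74 to 23.4, in replicate 2). It held 6.61% and 5.18% of the other peaks of chromosome 20, and 3.38% and 3.33% of all peaks. The element was annotated at 9 CDH4 sites. Hexamer repeats of ACCATC (written ATGGTG or CACCAT in the files) labelled 4 CDH4 peaks in replicate 1 and 7 in replicate 2 (3.92% and 7.87%), against 1.6% and 2.01% of all peaks. The shorter units ACC, ATC and ACCC labelled 7 and 3 (6.86% and 3.37%), against 4.34% and 4.62% of all peaks. Repeats of the ACCATC unit or of its trimers occurred at 4 CDH4 sites, and each of these 4 also held HAL1-2a_MD. The pairing was not particular to CDH4: over the lists, 61.9% of the 480 sites with HAL1-2a_MD also held a repeat of ACCATC, ATC or ACC (units written on either strand), against 2.61% of the 13549 sites without the element.

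A mixed site lay in intron 2, at 60032527 to 60033895. Its peaks carried labels of the ATGGTG hexamer, of its trimers and of HAL1-2a_MD, and held 153 tags in 8 peaks of replicate 1 and 77 tags in 6 peaks of replicate 2. The site at 60160680 to 60161247 had ATGGTG hexamer, trimer and HAL1-2a_MD labels, with 68 tags in replicate 1 and 34 in replicate 2.

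Peaks with no annotated repeat numbered 29 (28.4%) in replicate 1 and 16 (18.0%) in replicate 2, against 25.7% and 21.3% of all peaks. Other repeats, such as L1PB3, covered 8 (7.84%) and 4 (4.49%), against 19.6% and 16.5% of all peaks. Sites where no peak carried a repeat label numbered 4 and held 55 tags in replicate 1 and 16 in replicate 2. The largest of these, intergenic at 59777003 to 59777427, had 43 tags in replicate 1 and 11 in replicate 2.

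**Figure D2:**
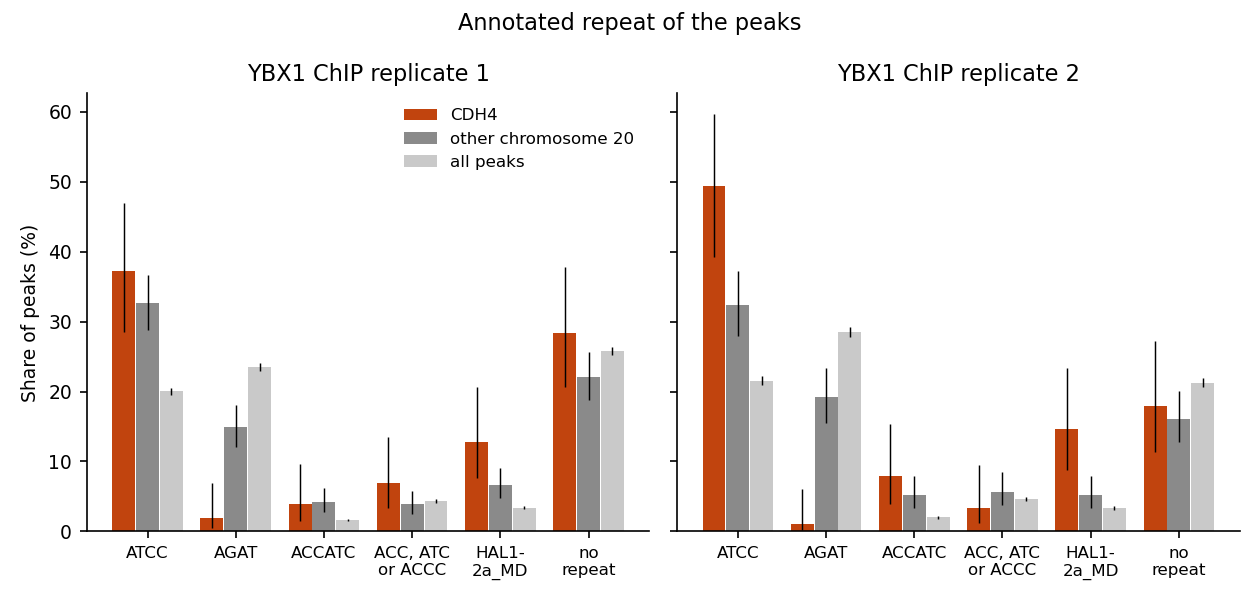
Bars give the share of peaks (%) with each annotated repeat for CDH4, for the other peaks of chromosome 20 and for all peaks, in each replicate, with Wilson 95% intervals as error bars. CDH4 bars are highest for ATCC (37.3% and 49.4%) and low for AGAT (1.96% and 1.12%), and HAL1-2a_MD stands at 12.7% and 14.6%.

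Most CDH4 signal recurred between the replicates. At least 1 bp of a replicate 2 peak was covered by 69 of the 102 replicate 1 peaks (67.6%, 58.1 to 75.9 by the Wilson interval), against 53.2% of the other peaks of chromosome 20 and 54% of all peaks. Among the 89 replicate 2 peaks, 85 met a replicate 1 peak (95.5%, 89.0 to 98.2), against 82.6% of the others and 77.6% of all. With a reciprocal overlap of at least 50% the CDH4 shares were 38.2% in replicate 1 and 43.8% in replicate 2. The overlaps of at least 1 bp formed 53 shared regions of the 10895 in the lists, 47 of them in the gene. CDH4 was proposed on its shared regions, so these shares are given as descriptions.

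Recurrence followed the number of tags. In replicate 1, peaks with 5 tags were shared in 6 of 15 cases and those with 6 to 10 tags in 10 of 25, while 24 of 32 with 11 to 20 tags, 19 of 20 with 21 to 50 and 10 of 10 with more were shared. The shares over all peaks in these classes were 19.0%, 38.9%, 78.5%, 96.2% and 98.5%. Within classes of like tags, CDH4 thus stood close to the whole list except at 5 tags, where 40% were shared. The replicate 2 pattern differed: all 31 CDH4 peaks with 6 to 10 tags were shared, as were all 22 with 11 to 20, all 12 with 21 to 50 and all 6 with more, and 14 of 18 with 5 tags. Over all replicate 2 peaks the shares were 75.6%, 94.2%, 96.9%, 97.9% and, at 5 tags, 49.8%.

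The 33 unshared replicate 1 peaks had a median of 8 tags, against 19 in the 69 shared ones, and 25 of them lay at a site with a replicate 2 peak. The strongest of them, at 60004913 to 60005060 in intron 2, had 23 tags and a fold enrichment of 38.7, and was 3 bp from the 60004435 to 60004909 region. All 4 unshared replicate 2 peaks had 5 tags, and 3 of them lay at a site with a replicate 1 peak. Most unshared CDH4 peaks thus lay at a site with a peak of the other list. The share of all unshared peaks at such sites was not computed, and CDH4 sites were crowded, so this is a description. The median of 8 tags was low beside the shared CDH4 peaks but near the 9 over all replicate 1 peaks.

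Of the 30 sites, 24 (80%) had peaks in both lists, against 57.2% of the 14029 sites over the lists. Replicate 1 alone had 5 sites, and replicate 2 alone had 1, a single peak of 5 tags at 60244151 to 60244206. Of the 5, the sites at 59793248, 59912292 and 60492298 had 5, 5 and 7 tags, and the TCCA site at 60362120 had 12. The fifth stood apart: a HAL1-2a_MD site at 60066882 to 60067391 had 4 peaks and 51 tags in replicate 1 and no peak in replicate 2. Over the lists, 19 of the 1836 sites with at least 51 replicate 1 tags (1.03%) lacked a replicate 2 peak.

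Tags in peaks at shared places varied together in the replicates, with fewer in the peaks of replicate 2. Over the 24 sites in both lists, log2 tags had a Pearson r of 0.917 and a Spearman rho of 0.915, and over the 53 shared regions 0.897 and 0.863. Over all shared sites (8022) these were 0.869 and 0.826, and over all shared regions (10895) 0.865 and 0.767; all are descriptions across places in the same libraries. Replicate 1 had more tags at 23 of the 24 sites, the exception being an L1M5 site at 60441488 to 60441545, where replicate 1 had 5 tags and replicate 2 had 6. The ratio of replicate 2 to replicate 1 tags had a median of 0.593 (range 0.256 to 1.2) at CDH4 sites, against 0.7 over all shared sites. Tags were summed inside each list's own peaks, so these values compare stretches of unequal length. CDH4 peaks covered 15267 bp in replicate 1 and 10228 bp in replicate 2, with 17.6 and 15.1 tags per 100 bp. Kept tags were nearly equal in the libraries. Over all peaks, too, replicate 2 had fewer tags in peaks, 250698 against 385885 in replicate 1. The cause of the lower replicate 2 tags was not tested.

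**Figure D3:**
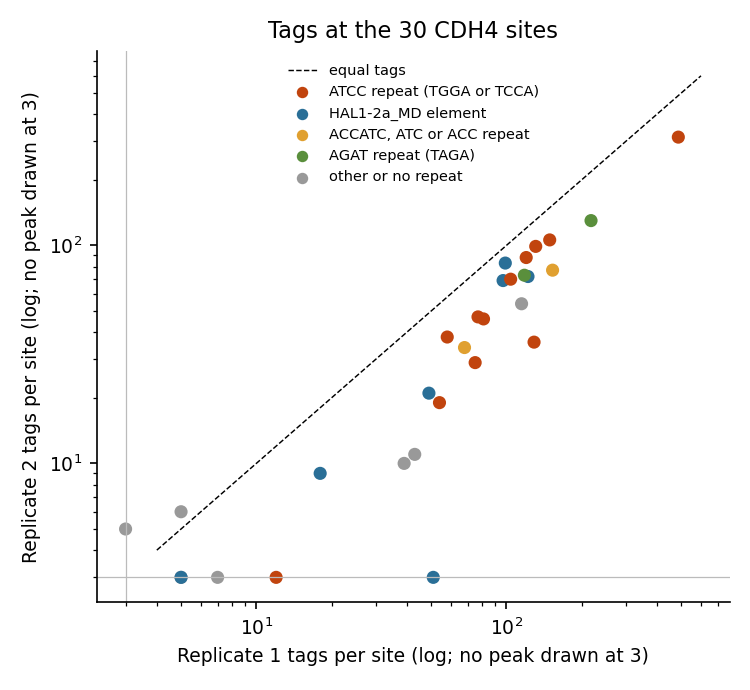
Each point is 1 of the 30 CDH4 sites, with the summed tags of its replicate 1 peaks on the horizontal axis and of its replicate 2 peaks on the vertical axis (both log scales), coloured by the repeat label with most tags, and sites with no peak in a list drawn at 3. Points lie mostly below the dashed line of equal tags, as 23 of the 24 sites in both lists had more replicate 1 tags, and the site with 51 replicate 1 tags sits on the lower edge.

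Peak boundaries differed more than sites did. In 34 of the 53 shared regions each list had 1 peak, and their summits were a median of 23.5 bp apart, with the farthest at 194 bp. In 16 regions replicate 2 had more peaks than replicate 1, and in 2 replicate 1 had more. At the strongest site, for instance, replicate 1 had 4 peaks and replicate 2 had 5 over nearly the same bases.

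The background that the caller used under CDH4 peaks was above the genome-wide level throughout. It was recovered for each peak from the deposited tags and score, as a multiple of the genome-wide level. The caller sets it from the genome-wide level or from depth-scaled input counts near the peak, with local windows of 1000 and 10000 bp. Which of these set the level of a peak was not tested. The level could change over short distances: in replicate 2 it was 3.66 at 60031079 to 60031147. At the neighbouring replicate 2 peaks, from 60030947 and from 60031149, it was 1.66 and 1.84. CDH4 peaks had a median level of 1.74 in replicate 1 (1.37 to 2.85) and 1.70 in replicate 2 (1.41 to 3.70), against 1.00 and 1.04 for the other peaks of chromosome 20 and 1.09 and 1.12 for all peaks. All 190 CDH4 peaks with a level stood above 1.3, as did 32.1% of all peaks in replicate 1 and 35% in replicate 2. The deposited fold was that of the genome-wide background in 0 of 102 CDH4 peaks in replicate 1 and 0 of 89 in replicate 2, with Wilson 95% intervals from 0 up to 3.63% and 4.14%. The share was 55.4% and 48.7% of the other peaks of chromosome 20 and 38.9% and 37.4% of all peaks. The highest level, 3.70, lay under a replicate 2 peak of 19 tags at 59950867 to 59950983, whose fold enrichment was 22.04. Because both lists share the input, the levels in the replicates are not independent.

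The raised level ran well past the gene. From 59459190 to 60973612, a stretch of 1514 kb, every peak with a level was at 1.34 or above. The stretch held 133 peaks in replicate 1 and 113 in replicate 2, of which 31 and 24 were not named for CDH4; those had a median level of 1.81 and 1.65. They were named for 15 other genes, such as LAMA5, GATA5, TAF4 and OSBPL2. Within 1 Mb outside the stretch there were 15 peaks in replicate 1 and 12 in replicate 2, with a median level of 1.00 and 1.01, and 14 and 10 of them were below 1.1. The last low peak before the stretch was at 59235858 to 59235928 (level 1.02) and the first after it at 61079413 to 61079510 (1.00). The stretch was cut at these nearest peaks below 1.1, so its contrast with its surroundings is partly set by that choice. Levels above 1.3 also occurred elsewhere on chromosome 20. Of its peaks not named for CDH4, those of this stretch included, 36.9% in replicate 1 and 41.2% in replicate 2 stood above 1.3. The part that the number of DNA copies or the mapping of reads plays in the level was not tested.

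**Figure D4:**
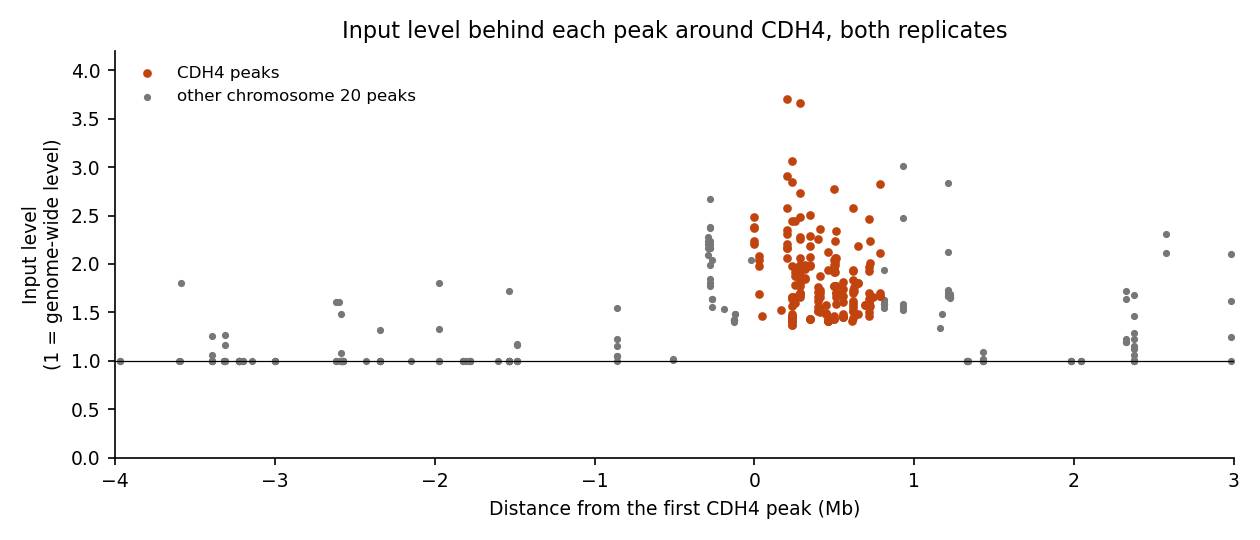
Each point is 1 peak of either replicate, placed by its distance from the first CDH4 peak (Mb) and by the input level behind it, where 1 is the genome-wide level. CDH4 peaks (median 1.74 in replicate 1 and 1.70 in replicate 2) and their neighbours stand above 1.3, and the peaks within 1 Mb outside the raised stretch have a median of 1.00 in replicate 1 and 1.01 in replicate 2.

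The single nearest peak on each side that was not named for CDH4 had few tags. On the left, a peak at 59727238 to 59727290, named for LOC100506470 and lying on an MLT1A1-int element, had 5 tags and a fold enrichment of 26.4. On the right, a peak at 60561069 to 60561130 in intron 14 of 14 of TAF4 had 7 tags and a fold enrichment of 42.4. Both were from replicate 1. The right-hand peak opened a close run of peaks found in both lists. Single peaks of that run reached 17 tags in replicate 1 and 9 in replicate 2. CDH4 was the densest stretch of its chromosome: its fullest 100 kb window held 10 shared regions, the highest of the 161 windows of chromosome 20 with any, where the median was 1, and 6 of the 10 fullest windows contained CDH4.

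Among the 2207 genes with a shared region in the gene, 29 had at least 10. CDH4 was first with 47 regions at 21 sites, and SORCS2, a sortilin-family receptor, followed with 26 regions at 15 sites. CAMTA1, a calmodulin-binding transcription activator, had 22 at 12 sites, and PTPRN2, of the receptor-type tyrosine phosphatase family, had 20 at 8. C22orf34, the phosphatase PTPRD and SHANK2, a scaffold protein of synapses, had 16 each. Gene length was not taken into account in these counts.

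**Figure D5:**
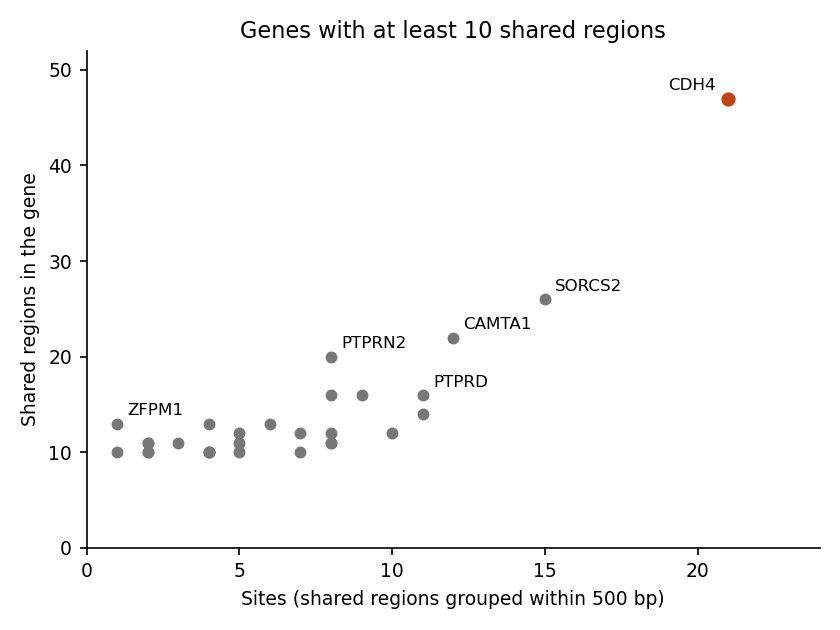
Each point is a gene with at least 10 shared regions, with its sites on the horizontal axis and its shared regions in the gene on the vertical axis. CDH4, at 21 sites and 47 regions, stands apart from SORCS2 at 15 and 26.

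By the makeup of its shared regions over repeat units and classes, CDH4 was most like SHANK2 (cosine similarity 0.946) and SORCS2 (0.944), then ASMTL and ZNF423 (0.910 each) and ZFPM1 (0.906), among these 29 genes. SHANK2 had 10 ATCC regions and 4 HAL1-2a_MD regions of its 16, and SORCS2 had 15 and 4 of its 26, beside 24 and 5 of the 47 in CDH4. ASMTL, ZNF423 and ZFPM1 were less mixed. All 10 regions of ASMTL and of ZNF423, and 11 of the 13 of ZFPM1, were ATCC, with 0 on HAL1-2a_MD. The ZFPM1 regions lay at 1 site and those of ASMTL at 2. These 5 genes had lower input levels than CDH4: the highest of their medians was 1.00 in replicate 1 and 1.05 in replicate 2. The median level in the gene was 1.72 in replicate 1 and 1.70 in replicate 2 for CDH4, against 1.00 and 1.05 for SORCS2. CDH4 ranked 6 of 29 by this level in both replicates, and PTPRD was first at 2.60 and 2.74. The median fold enrichment in the gene was 40.9 and 37.3 for CDH4, against 66.7 and 56.5 for SORCS2.

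Of a list of 30 cadherins and catenins, 20 were named for a peak, and all 20 had a shared region, against 66.7% of the 10830 genes named for a peak. Of these, 12 had a shared region in the gene, against 20.4% of the 10830. CDH4, selected for its shared regions, is itself among the 20 and the 12. The share of all annotated genes that were named for a peak was not computed. The 20 of 30, and the members named for no peak, therefore have no background share beside them. Gene length was not taken into account here either, so these counts stand as descriptions. After CDH4, the type II cadherins CDH12 and CDH18 had 11 and 5 regions in the gene. The atypical cadherin CDH13 and the catenin CTNNA3 had 4 each, and CTNND2, a catenin of the p120 group, had 3. The tops were mostly TAGA or TCTA repeats, as at CDH12, where the highest peaks had fold enrichments of 139 in replicate 1 and 190 in replicate 2. CDH13 was the exception among those with 4 or more regions, with its top on HAL1-2a_MD at 162 and 150. E-cadherin (CDH1) and beta-catenin (CTNNB1), the best known pair of the family, were named for no peak in either list, nor were CTNNA1, CTNND1 and 6 other members of the list.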

How the data were processed

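The authors deposited 1 filtered peak list per YBX1 ChIP library, each called against the same input with MACS 1.4.2 on hg19, per the file headers; Trimmomatic 0.36, Bowtie2 and MACS 1.4 are named per the submitters' processing notes. Calling used a p cutoff of 1e-05, d of 20 bp, tags of 36 bp and 1 tag kept per position, per the file headers. How the authors filtered the lists is not stated in their headers or labels. The deposited columns are tag counts per peak, a score that is proportional to −log10 of the p-value, a fold enrichment ratio and a percent false discovery rate, which was 0 in every deposited row. Peaks carry the authors' gene and repeat annotation. Coordinates are 1-based.

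Members, gene list and tests were chosen with earlier results of these data known. Peaks naming CDH4 were kept. Peaks of either list within 500 bp were grouped into sites, and peaks overlapping by at least 1 bp were joined into shared regions, with tags summed over their peaks. Tandem units were grouped over rotations and strands. The peaks named are the 10 shared regions with the highest lower tag count, the first and last, the closest and widest neighbours, the strongest unshared peak of each list and the nearest peaks outside; other sites were named after their values were seen. Genes named as alike have the highest cosine similarity of region counts per repeat unit or class.

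The input level is the background at which a Poisson tail of the deposited tags, over the peak width or 40 bp if wider, gives the deposited score. Scores of 3000 or more (141 peaks, 1 of CDH4) give none. The summit height it implies was within 0.05 of a whole number in 96.6% of replicate 1 peaks and 96.8% of replicate 2 peaks, where chance gives 10%. The method also recovered the levels of simulated peaks. Their scores were made with the same formula, so this checks the arithmetic and not how the caller set the background. Python 3.11.15, pandas 2.3.3, numpy 2.4.6, scipy 1.17.1 and matplotlib 3.10.9 were used. No comparison had a test across samples, since only YBX1 ChIP had replicates. Alternatives were other peak thresholds, overlaps, site gaps, windows and leaving out each replicate.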

Additional observations from a re-analysis of the deposited data

How the results depend on the processing

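The alternatives gave 80 values for 16 results: 50 stayed close to the reported value and 30 moved. Values were sorted only into these classes, and a change of direction was not scored. With peaks of p at most 1e-10, CDH4 had 66 peaks in replicate 1, 45 in replicate 2 and 30 shared regions. Over both lists HAL1-2a_MD then held 17.1% of CDH4 peaks, against 13.6% of all CDH4 peaks, and the median summit distance was 273 bp, width 124 bp, tag count 19, fold enrichment 48.7 and input level 1.77. With at least 10 tags per peak, CDH4 had 67 peaks in replicate 1, 42 in replicate 2 and 29 shared regions, and 56.7% of the replicate 1 peaks were shared. HAL1-2a_MD then held 16.5%, the median summit distance was 290 bp, width 126 bp, tag count 19, fold enrichment 48.3 and input level 1.77, and the Pearson r over regions was 0.806. These thresholds remove the smaller peaks by construction.

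With a reciprocal overlap of at least 50%, 38.2% of replicate 1 and 43.8% of replicate 2 CDH4 peaks were shared. With peaks up to 100 bp apart, 82.4% and 98.9% were, in 27 regions. Merging peaks within 500 bp gave 24 shared regions with a median distance of 26263 bp. With 1 replicate left out, the fullest 100 kb window held 18 to 21 peaks, and the median input level over CDH4 peaks was 1.70 to 1.74. The number of sites was 25 to 31 over the site gaps of 250 and 1000 bp and with 1 replicate left out. The site gaps and all alternatives for the input level were chosen after seeing the data.

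No paired analysis was possible because only YBX1 ChIP had replicates. No CDH4 peak had under 5 tags, so absence from a list is not absence of signal. Both lists share the input, and most CDH4 peaks lie on repeats; the part of mapping was not tested.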
